A study of Mus musculus with 35 samples.

Results

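Transcripts of 10 mouse genes for stretch-sensitive channels and ATP receptors were followed across 5 groups of lungs: the channels Piezo1, Piezo2, Trpv4, Trpv2, Trpc6 and Kcnk2, the ATP-release channel Panx1, and the receptors P2ry2, P2rx4 and P2rx7. They were chosen by name, with earlier results of these data known, and were 10 of the 19938 genes measured. Each was read at 1 probe set, the one with the highest mean over the 35 arrays among those assigned to that gene alone. Changes were read gene by gene, and movement of the members as a set was not tested. P2ry2 was 1.95-fold higher after high than after low stretch ventilation in normal CO2. P2rx7 was 1.34-fold lower after low stretch ventilation than without ventilation. Kcnk2 was 1.31-fold lower when CO2 was added to high stretch ventilation. Compared with no ventilation, P2rx4 and P2rx7 were both called lower in every ventilated group, and Trpv2 was called higher in both high stretch groups. Some of the P2rx4 and Trpv2 calls were lost when 1 array was left out. Piezo1, Piezo2, Trpv4, Trpc6 and Panx1 passed the test in no comparison.

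Cells of the ventilated lung are deformed with each breath. Piezo and some TRP channels admit calcium and other cations when the membrane is strained, whereas stretch-opened potassium channels such as the product of Kcnk2 pull the membrane potential the other way. Stretched lung cells also release ATP, partly through pannexin channels, and the ATP acts on neighbouring cells through ATP-gated P2X channels and G-protein-coupled P2Y receptors. P2Y2 is known in airway and alveolar epithelium for calcium signals that drive fluid and surfactant secretion, and P2X7 is known in macrophages for starting inflammasome activation.

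The 35 lungs came from adult male C57BL/6J mice of 20 to 25 g on a normal diet, with 1 Affymetrix array per animal and no engineered allele in any group. High stretch hypercapnia (10 arrays) was 3 h of ventilation at about 35 to 40 ml/kg to a peak pressure of 27 cmH2O, with 0 cmH2O at the end of expiration, 30 to 35 breaths per minute, an oxygen fraction of 0.75 and a CO2 fraction of 0.12. High stretch normocapnia (10 arrays) was the same without CO2. Low stretch hypercapnia (5 arrays) was 3 h at 10 ml/kg, 135 breaths per minute, with 2.0 cmH2O held at the end of expiration and a CO2 fraction of 0.12 in room air, and low stretch normocapnia (5 arrays) was the same in room air alone. Non-ventilated mice (5 arrays) breathed room air on their own. High and low stretch therefore differ in volume, pressure, rate and oxygen together, and ventilated mice were also anaesthetised and tracheostomised. All lungs were lavaged before freezing, which washes cells out of the airspaces. The labels call the arrays biological replicates and name no batch or pairing.

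The arrays were even: their median log2 signals ran from 6.96 to 7.05. The lung identity of the tissue was clear in every array, with Sftpc of alveolar type 2 cells at 13.94 to 14.10, Scgb1a1 of airway club cells at 13.60 to 13.85, Ager of alveolar type 1 cells at 12.79 to 13.04 and Cdh5 of endothelium at 11.75 to 12.09. Signals below are log2 values, changes are differences of group means on that scale with limma standard errors, and a change was called at a Benjamini-Hochberg adjusted p under 0.05 over all 19938 genes. Fold values are sizes, with the direction given in words.

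The 3 genes with the clearest changes are shown here by 1 RefSeq start-site window each, which holds the sequence around an annotated start. Which start is used in these lungs was not measured. Windows run from 250 bases before to 50 bases after a start (GRCm38.p6), and 9 of the 10 genes had at least 1, with 16 windows in all. For P2ry2 the window is chr7:101012004-101012303 (minus strand), 1 of 2, and capitals mark the transcribed bases. For Kcnk2 it is chr1:189344143-189344442 (minus strand), 1 of 4 alternative starts, and capitals mark an AP-1 match. The other Kcnk2 windows held none of the motifs searched. For P2rx7 it is chr5:122643677-122643976 (plus strand), 1 of 2, and capitals mark an AP-1 match and a GC box.
P2ry2: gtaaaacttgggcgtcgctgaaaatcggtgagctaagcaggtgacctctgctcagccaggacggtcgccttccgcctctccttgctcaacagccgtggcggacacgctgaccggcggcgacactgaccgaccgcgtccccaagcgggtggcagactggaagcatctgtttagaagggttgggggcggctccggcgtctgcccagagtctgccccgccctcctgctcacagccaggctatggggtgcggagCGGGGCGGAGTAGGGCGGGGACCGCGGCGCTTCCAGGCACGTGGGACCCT
Kcnk2: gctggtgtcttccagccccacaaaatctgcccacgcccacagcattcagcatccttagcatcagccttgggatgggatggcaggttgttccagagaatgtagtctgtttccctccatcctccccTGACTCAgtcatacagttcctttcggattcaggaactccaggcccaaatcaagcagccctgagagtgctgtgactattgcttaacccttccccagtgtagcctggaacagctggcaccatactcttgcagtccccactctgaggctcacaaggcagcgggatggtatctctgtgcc
P2rx7: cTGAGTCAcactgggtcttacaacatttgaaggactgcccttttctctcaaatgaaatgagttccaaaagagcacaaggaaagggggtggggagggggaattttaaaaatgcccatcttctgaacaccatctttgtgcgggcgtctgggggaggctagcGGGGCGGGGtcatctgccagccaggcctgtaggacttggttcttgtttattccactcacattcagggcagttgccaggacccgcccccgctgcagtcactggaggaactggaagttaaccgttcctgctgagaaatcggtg

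Motifs were searched on both strands by their letters alone. AP-1 (TGANTCA) was present in 2 of the 16 member windows, beginning 126 bases before the Kcnk2 start and 249 bases before the P2rx7 start, and in 7.81% of all 32851 mouse windows. The GC box (GGGGCGGGG) was present in 1 of the 16, beginning 91 bases before the P2rx7 start, against 11.4% of all windows. None of the 16 held CRE (TGACGTCA, 1.79% of all windows), its core (TGACGT, 7.51%, which includes every CRE), the EGR site (GCGTGGGCG, 0.612%) or the STAT site (TTCCNGGAA, 1.15%). Neither P2ry2 window held any of the motifs searched. A match is a string of letters in the window, and binding was not measured.

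**Figure D1:**
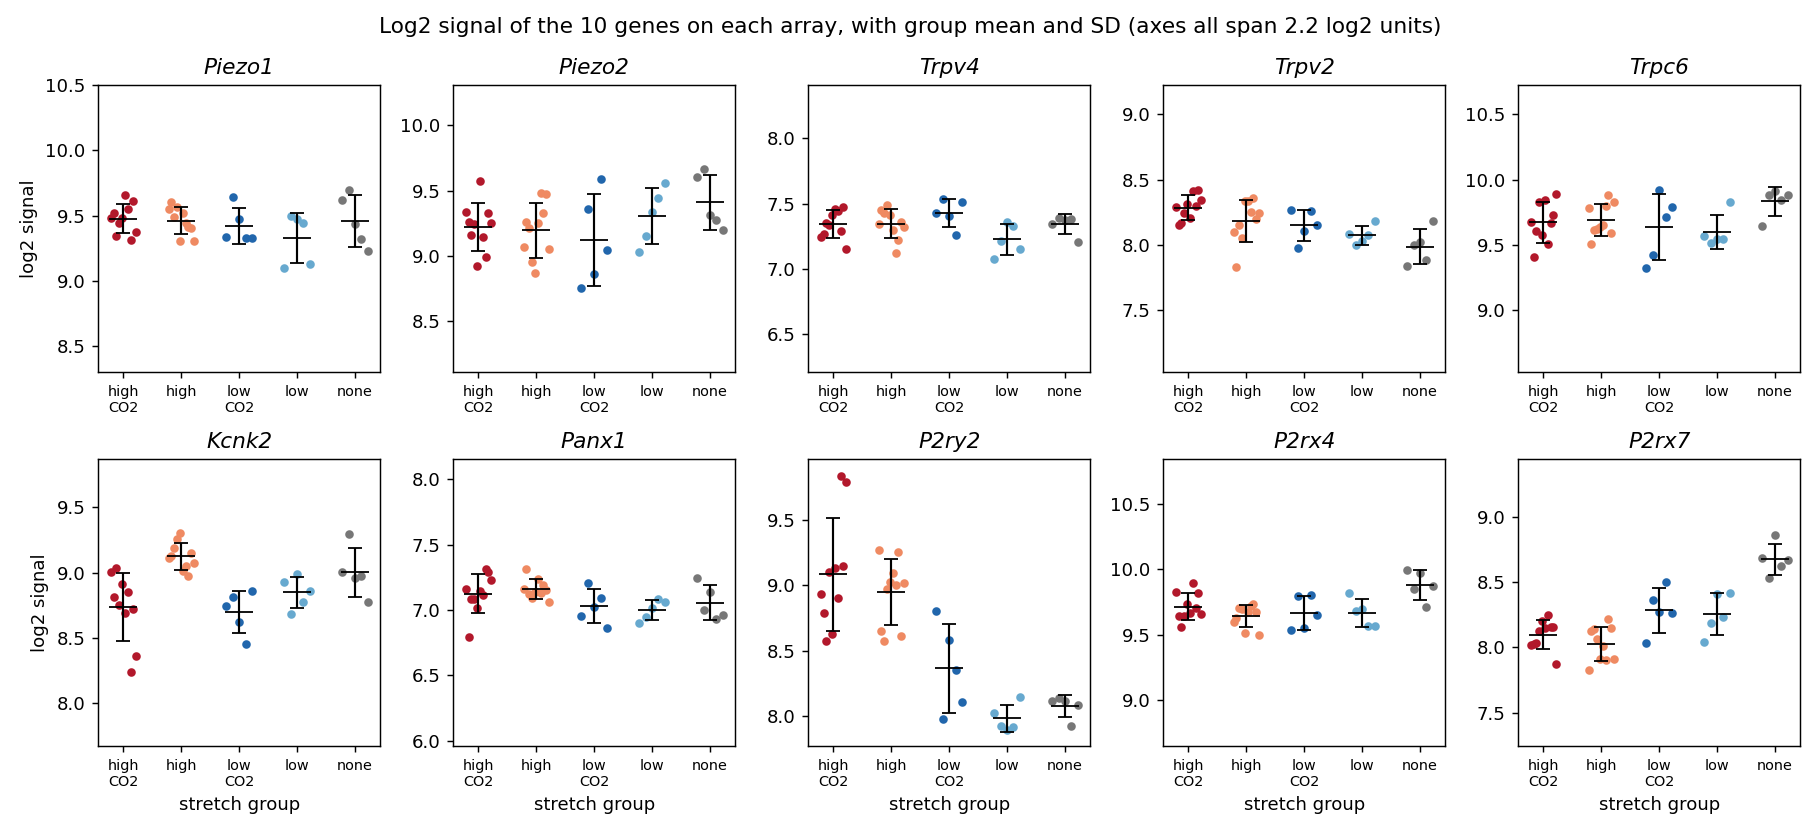
Log2 signal (vertical axes, each spanning 2.2 units) of the 10 genes on every array, by group from left to right: high stretch hypercapnia and normocapnia, low stretch hypercapnia and normocapnia, and non-ventilated. Points are arrays and bars are group mean and SD. P2ry2 stands high in both high stretch groups, P2rx7 stands highest in the non-ventilated group, and Kcnk2 stands lower with CO2 at high stretch. The Piezo, Trpv4, Trpc6 and Panx1 panels overlap across groups.

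The span between the highest and lowest group mean sets the scale of these changes. It was 1.10 for P2ry2, 0.65 for P2rx7 and 0.43 for Kcnk2, and between 0.15 (Piezo1) and 0.30 (Trpv2) for the other 7. When the 5 groups were ranked for each gene, only 3 of the 40 differences between neighbouring ranks passed the test. These were the step in P2ry2 between high stretch normocapnia and low stretch hypercapnia, and the steps in P2rx4 and P2rx7 directly below the non-ventilated group. All other neighbours in rank were not separated by the test.

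Among the stretch-gated cation channels, Piezo1 (chr8:122481698-122551329) encodes the large trimeric channel by which endothelium and many other cells sense flow and pressure. It averaged 9.48 ± 0.11 in high stretch hypercapnia, 9.46 ± 0.10 in high stretch normocapnia, 9.42 ± 0.14 in low stretch hypercapnia, 9.33 ± 0.19 in low stretch normocapnia and 9.46 ± 0.20 in non-ventilated lungs (SD over arrays). Its change with high against low stretch in normocapnia was 0.13 ± 0.08 (adjusted p = 0.271), with a 95% interval of -0.02 to 0.29, and the groups overlapped.

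Piezo2 (chr18:63010213-63387716) encodes the related channel of sensory neurons, including vagal afferents that report lung inflation. It averaged 9.22 ± 0.18 in high stretch hypercapnia, 9.20 ± 0.21 in high stretch normocapnia, 9.12 ± 0.35 in low stretch hypercapnia, 9.30 ± 0.21 in low stretch normocapnia and 9.41 ± 0.21 in non-ventilated lungs. The non-ventilated mean was the highest and low stretch hypercapnia the lowest, a difference of -0.29 ± 0.14 that was not called (adjusted p = 0.171). Without low stretch hypercapnia replicate 4 that difference was -0.41 and was called (adjusted p = 0.0393). Piezo1 and Piezo2 each had 3 probe sets, and no probe set of either passed in any comparison when all probe sets were tested, the lowest adjusted p being 0.0697.

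Trpv4 (chr5:114622152-114658435) encodes a calcium-permeable channel of lung endothelium and epithelium that responds to stretch, swelling and heat. Its low stretch hypercapnia arrays read 7.43, 7.54, 7.40, 7.26 and 7.51, and its low stretch normocapnia arrays 7.08, 7.21, 7.36, 7.33 and 7.15. 4 of 5 hypercapnia arrays lay above every normocapnia array, and replicate 4 lay within their range. The change was 0.20 ± 0.07, with an unadjusted p of 0.00632 and an adjusted p of 0.284, so it was not called. At high stretch the means were 7.34 ± 0.11 with CO2 and 7.34 ± 0.11 without (SD, n = 10 each), a change of -0.0024 ± 0.05 with a 95% interval of -0.10 to 0.10. The interaction between CO2 and stretch was -0.20 ± 0.09 (unadjusted p = 0.0218, adjusted p = 0.997).

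Trpv2 (chr11:62574486-62600305) encodes a cation channel found in macrophages and muscle as well as sensory neurons. Its lowest, median and highest arrays were 8.15, 8.29 and 8.42 in high stretch hypercapnia and 7.83, 8.22 and 8.36 in high stretch normocapnia. Non-ventilated arrays read 7.84, 8.00, 8.03, 7.88 and 8.18. 8 of 10 high stretch hypercapnia arrays lay above all non-ventilated ones, and the other 2 fell below only the highest of these. In high stretch normocapnia 6 of 10 lay above all, and the group overlapped the whole non-ventilated range.

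Against no ventilation Trpv2 rose by 0.30 ± 0.07 in high stretch hypercapnia (adjusted p = 0.000719) and by 0.20 ± 0.07 in high stretch normocapnia (adjusted p = 0.0205). The second call ended when non-ventilated array 1 (adjusted p = 0.0868) or 4 (0.0687) was left out, and in a fit of the compared groups alone (0.0666). No single step of the design was called: the changes were 0.09 ± 0.08 for low stretch ventilation, 0.11 ± 0.07 for high against low stretch in normocapnia, 0.13 ± 0.07 for the same in hypercapnia, and 0.10 ± 0.06 for CO2 at high stretch. In the same comparisons 5 of 9 monocyte and macrophage markers rose and 1 fell in high stretch hypercapnia, and 4 of 9 rose in high stretch normocapnia. Their summed log2 signals were 12.64 to 13.29 in high stretch hypercapnia, 12.68 to 13.25 in high stretch normocapnia and 12.30 to 13.05 in non-ventilated lungs. In both comparisons 8 of 10 neutrophil markers also rose, with a median change of 2.62 in high stretch hypercapnia and 2.91 in high stretch normocapnia. Called genes made up 33.8% of all genes in high stretch hypercapnia and 36.3% in high stretch normocapnia. The part of either list in the Trpv2 result was not tested.

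Trpc6 (chr9:8543867-8680752) encodes a receptor-operated cation channel of smooth muscle and endothelium that contributes to vascular leak in injured lungs. Low stretch normocapnia arrays read between 9.51 and 9.82 with a median of 9.55, and non-ventilated arrays between 9.64 and 9.91 with a median of 9.88. 4 of 5 low stretch arrays lay below all non-ventilated arrays, and replicate 5 lay among them. The change was -0.23 ± 0.10 and was not called (adjusted p = 0.121). After a second quantile normalization the same comparison passed (adjusted p = 0.0475), and so did high stretch hypercapnia against no ventilation (0.0385).

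Kcnk2 (chr1:189207930-189402782) encodes TREK-1, a 2-pore potassium channel opened by membrane stretch, arachidonic acid and internal acid. Its lowest, median and highest arrays were 8.24, 8.78 and 9.04 in high stretch hypercapnia, against 8.98, 9.12 and 9.30 in high stretch normocapnia. 8 of the 10 hypercapnia arrays lay below every normocapnia array, and replicates 8 and 10 were the lowest. Kcnk2 fell by 0.39 ± 0.08 with CO2 at high stretch (1.31-fold lower, adjusted p = 0.00227). It was the only member called in this comparison, 1 of 10, in which 5.56% of all genes were called. Other settings kept the call, with adjusted p between 0.000988 and 0.0072. In whole lung, fewer cells of a type and less RNA per cell cannot be told apart.

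Cell markers were read in the same comparison, in which 5.56% of all genes were called. With CO2 at high stretch 2 of 8 alveolar type 2 markers fell (Etv5 and Slc34a2) and 1 of 9 monocyte and macrophage markers fell (Cx3cr1). The summed alveolar type 2 signal was 15.69 to 15.83 in high stretch hypercapnia and 15.76 to 15.88 in high stretch normocapnia, and the monocyte and macrophage signal was 12.64 to 13.29 in high stretch hypercapnia and 12.68 to 13.25 in high stretch normocapnia. Their part in the Kcnk2 result was not tested. None of the measured markers of type 1 cells (8), endothelium (10), smooth muscle and pericytes (7), fibroblasts (6), airway epithelium (6), neutrophils (10), platelets (5), B cells (6) or T cells (8) was called.

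Without added CO2, Kcnk2 was higher with the high stretch settings than with the low stretch settings. The 10 high stretch normocapnia arrays ran from 8.98 to 9.30, and the low stretch normocapnia arrays read 8.92, 8.69, 8.99, 8.77 and 8.86. 9 of the 10 lay above every low stretch array, and replicate 8 fell within their range. The rise was 0.28 ± 0.10 (1.21-fold, adjusted p = 0.0427), close to the threshold. It missed the threshold when 1 array was left out in 9 fits. Without low stretch normocapnia replicates 1, 2, 4 and 5 the adjusted p was 0.0511, 0.138, 0.108 and 0.0666, and without high stretch normocapnia replicates 1, 3, 4, 5 and 9 it was 0.0551, 0.0597, 0.064, 0.0731 and 0.0536. Both Kcnk2 results use the same high stretch normocapnia arrays.

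In hypercapnia no stretch difference in Kcnk2 was called. Low stretch hypercapnia arrays read 8.74, 8.81, 8.62, 8.45 and 8.86, within the range of the high stretch hypercapnia arrays. The change with high stretch was 0.04 ± 0.10 (adjusted p = 0.849, 95% interval -0.16 to 0.24). CO2 at low stretch gave -0.15 ± 0.11 (adjusted p = 0.763). The interaction itself was -0.24 ± 0.14 (unadjusted p = 0.0939, adjusted p = 0.997), so the CO2 effect was not shown to differ between stretch levels.

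Against no ventilation, where Kcnk2 arrays read 9.00, 9.30, 8.96, 8.97 and 8.78, high stretch hypercapnia was lower by 0.26 (adjusted p = 0.0332). That call ended when non-ventilated array 1 (0.0584) or 2 (0.169), or high stretch hypercapnia array 8 (0.0631) or 10 (0.0664), was left out, and also with array weights (0.0631) or the compared groups alone (0.114). Low stretch hypercapnia differed from no ventilation by -0.30 ± 0.11 (adjusted p = 0.064, not called), and the difference passed when array 5 of the low stretch group (0.0456) or array 5 of the non-ventilated group (0.0346) was left out. It also passed with array weights (0.0346), among genes above the median level (0.0374) and after a second quantile normalization (0.0409).

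**Figure D2:**
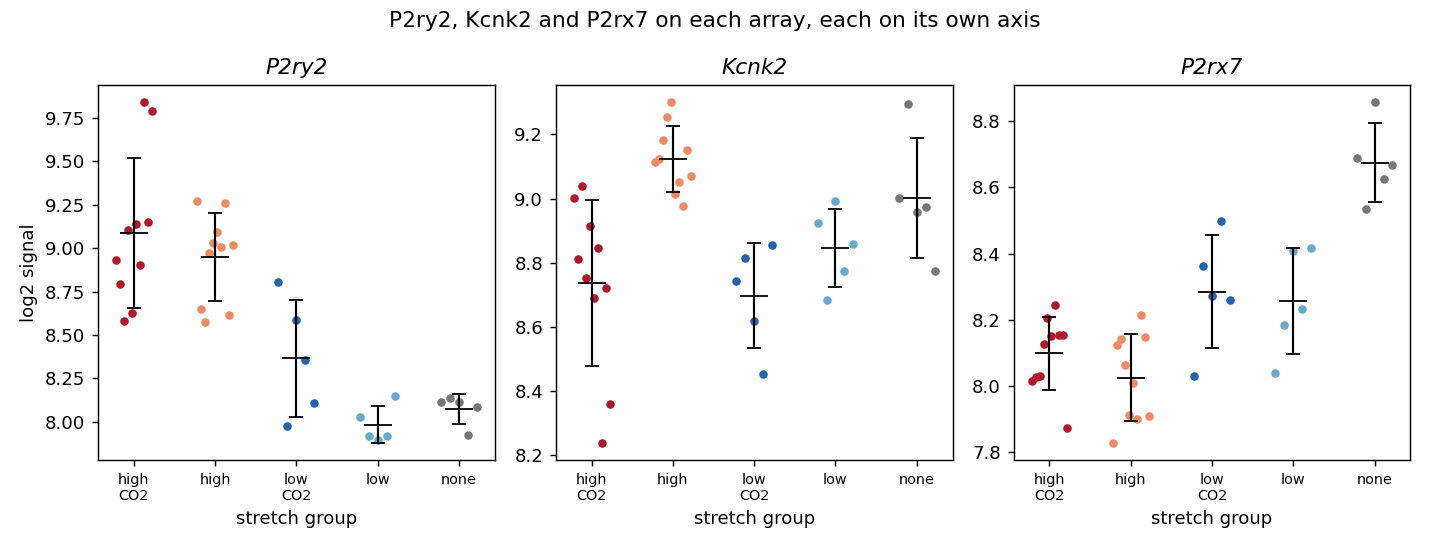
Log2 signal (vertical axes, each on its own scale) of P2ry2, Kcnk2 and P2rx7 on every array, in the group order high stretch hypercapnia, high stretch normocapnia, low stretch hypercapnia, low stretch normocapnia, non-ventilated. Points are arrays and bars are group mean and SD. P2ry2 runs up to 9.84 in high stretch hypercapnia, where Kcnk2 runs down to 8.24, and every ventilated P2rx7 array lies below every non-ventilated one.

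Panx1 (chr9:15005785-15045478) encodes pannexin 1, the channel through which stretched or dying cells release ATP. Its lowest, median and highest arrays were 7.06, 7.14 and 7.32 in high stretch normocapnia, against 6.90, 7.02 and 7.09 in low stretch normocapnia. 9 of 10 high stretch arrays lay above all low stretch arrays, but the change was small, 0.16 ± 0.07 (1.12-fold), and was not called (adjusted p = 0.0935). Fitted on these groups alone it passed (adjusted p = 0.0285). In hypercapnia the same step was 0.09 ± 0.07 (adjusted p = 0.409), and CO2 at high stretch gave -0.04 ± 0.05 (95% interval -0.15 to 0.07).

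P2ry2 (chr7:100996568-101012053) encodes the receptor for ATP and UTP that couples through Gq to phospholipase C and calcium release. It had the widest span of the 10 genes. High stretch normocapnia arrays read 9.27, 8.65, 8.57, 8.97, 9.03, 9.09, 9.01, 9.26, 8.61 and 9.02, against 8.03, 7.92, 7.90, 7.92 and 8.15 in low stretch normocapnia. Every high stretch array lay above every low stretch array, and the lowest was 8.57 against a highest of 8.15. P2ry2 rose by 0.97 ± 0.16 with high stretch (1.95-fold, adjusted p = 3.22e-05). In this comparison 3.73% of all genes stood clear of the low stretch arrays on the high side.

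The rise with stretch was also present when CO2 was added. High stretch hypercapnia arrays read 8.93, 8.79, 8.58, 9.10, 8.63, 9.14, 8.90, 9.84, 9.15 and 9.79, against 8.81, 7.98, 8.58, 8.35 and 8.11 in low stretch hypercapnia. 7 of 10 lay above all low stretch arrays, and the other 3 lay below low stretch replicate 1 at 8.81, so the groups overlapped. The rise was 0.72 ± 0.16 (1.65-fold, adjusted p = 0.00229). These 2 stretch comparisons use different arrays. Their difference, the interaction, was -0.25 ± 0.22 (adjusted p = 0.997).

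CO2 itself gave no called change in P2ry2. At high stretch the mean was 9.09 ± 0.43 with CO2 and 8.95 ± 0.25 without (SD, n = 10 each), a change of 0.14 ± 0.13 with a 95% interval of -0.13 to 0.40. At low stretch it was 8.37 ± 0.34 with CO2 and 7.98 ± 0.11 without (SD, n = 5 each), a change of 0.38 ± 0.18 (unadjusted p = 0.0434, adjusted p = 0.522). 3 of 5 low stretch hypercapnia arrays lay above every low stretch normocapnia array. The spread was wide in both hypercapnia groups, and the normocapnia arrays at low stretch lay close together.

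No change in P2ry2 was called with low stretch ventilation itself. Non-ventilated arrays read 8.11, 8.13, 8.11, 7.93 and 8.08, and the change with low stretch was -0.09 ± 0.18 (adjusted p = 0.842, 95% interval -0.46 to 0.28). Both high stretch groups lay wholly above these arrays, high stretch hypercapnia by 1.01 ± 0.16 (2.02-fold, adjusted p = 4.28e-06) and high stretch normocapnia by 0.87 ± 0.16 (adjusted p = 3.16e-05). The share of all genes that lay wholly above was 7.26% for high stretch hypercapnia and 8.38% for high stretch normocapnia. In both comparisons 8 of 10 neutrophil markers rose and all 6 B cell markers fell, and 6 of 10 endothelial markers fell in high stretch hypercapnia and 7 of 10 in high stretch normocapnia. Of all genes, 33.8% were called in high stretch hypercapnia and 36.3% in high stretch normocapnia. The part of these markers in the P2ry2 result was not tested.

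Cell markers were read beside the stretch difference in P2ry2. High against low stretch called 18.3% of all genes in normocapnia and 10.1% in hypercapnia. With high against low stretch in normocapnia none of 10 neutrophil, 9 monocyte and macrophage, 6 fibroblast or 5 platelet markers was called. 5 of 6 B cell markers and 1 of 8 T cell markers rose, with summed B cell signals of 9.66 to 10.21 in high stretch and 9.14 to 9.83 in low stretch normocapnia. 2 of 10 endothelial markers and 1 each of the type 1, type 2, airway and smooth muscle lists fell. Summed endothelial signals were 14.25 to 14.48 in high stretch and 14.39 to 14.54 in low stretch normocapnia, and the part of these lists in the P2ry2 result was not tested. In hypercapnia none of the neutrophil, monocyte and macrophage, fibroblast or platelet markers was called either, and 4 of 6 B cell markers rose, with sums of 9.38 to 9.97 in high stretch and 8.92 to 9.53 in low stretch hypercapnia. There 1 endothelial, 1 T cell and 1 smooth muscle marker rose, and 2 endothelial, 2 type 2, 1 type 1 and 1 airway marker fell.

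P2rx7 (chr5:122643927-122692336) encodes the ATP-gated channel that opens at high ATP and releases potassium from macrophages. Its low stretch normocapnia arrays read 8.04, 8.18, 8.41, 8.23 and 8.42, against 8.69, 8.53, 8.86, 8.63 and 8.67 in non-ventilated lungs. The groups did not overlap. P2rx7 fell by 0.42 ± 0.08 with low stretch ventilation (1.34-fold lower, adjusted p = 0.000736). In low stretch hypercapnia the arrays read 8.03, 8.36, 8.27, 8.50 and 8.26, and the fall against no ventilation was 0.39 ± 0.08 (adjusted p = 0.00124). Groups lay wholly below the non-ventilated one for 3.54% of all genes in the first comparison and 3.95% in the second.

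With high stretch P2rx7 was lower still. High stretch normocapnia arrays had a lowest, median and highest value of 7.83, 8.04 and 8.22, and high stretch hypercapnia arrays of 7.87, 8.14 and 8.25. Every array of both groups lay below every non-ventilated array. Against no ventilation the falls were 0.58 ± 0.07 in high stretch hypercapnia (1.49-fold lower, adjusted p = 1.23e-07) and 0.65 ± 0.07 in high stretch normocapnia (1.57-fold lower, adjusted p = 1.07e-08), where groups lay wholly below for 5.98% and 7.91% of all genes. These falls and those at low stretch share the same 5 non-ventilated arrays.

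The step from low to high stretch was smaller. In normocapnia P2rx7 fell by 0.23 ± 0.07 (adjusted p = 0.0238), with 5 of 10 high stretch arrays below all low stretch arrays, and leaving out low stretch normocapnia replicate 3 (adjusted p = 0.107) or 5 (0.0923) ended the call. In hypercapnia the change was -0.19 ± 0.07 and was not called (adjusted p = 0.104), but it passed without low stretch hypercapnia replicate 1 (0.0268). CO2 gave 0.07 ± 0.06 at high stretch (adjusted p = 0.615) and 0.03 ± 0.08 at low stretch (adjusted p = 0.968).

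P2rx4 (chr5:122707518-122729739) encodes the slower ATP-gated channel of lysosomes and lamellar bodies, known in alveolar type 2 cells for its part in surfactant release. Its low stretch normocapnia arrays read 9.81, 9.68, 9.70, 9.56 and 9.56, against 9.99, 9.85, 9.97, 9.71 and 9.87 in non-ventilated lungs. 4 of 5 lay below all non-ventilated arrays, and replicate 1 lay among them. P2rx4 fell by 0.22 ± 0.07 (1.16-fold lower, adjusted p = 0.0322), and the call ended when non-ventilated array 1 (0.1) or 3 (0.0818), or low stretch normocapnia array 2 (0.0517), 4 (0.091) or 5 (0.0969), was left out, or the compared groups were fitted alone (0.126).

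The other ventilated groups lay in the same place. P2rx4 averaged 9.71 ± 0.10 in high stretch hypercapnia and 9.64 ± 0.08 in high stretch normocapnia (SD, n = 10 each), 9.67 ± 0.13 in low stretch hypercapnia and 9.66 ± 0.11 in low stretch normocapnia, and 9.88 ± 0.11 in non-ventilated lungs (SD, n = 5 each). Against no ventilation it fell by 0.24 ± 0.06 in high stretch normocapnia (adjusted p = 0.00151), by 0.16 ± 0.06 in high stretch hypercapnia (adjusted p = 0.0281) and by 0.21 ± 0.07 in low stretch hypercapnia (adjusted p = 0.0281). No single left-out array ended the high stretch normocapnia call. The high stretch hypercapnia call was lost when non-ventilated array 1 (0.105) or 3 (0.0867), or array 3 (0.0508) of that group, was left out, and the low stretch hypercapnia call when non-ventilated arrays 1 (0.089) or 3 (0.078), or arrays 1 (0.105) or 3 (0.0911) of its own group, were left out. Fits of the compared groups alone ended both, with adjusted p of 0.0608 for high stretch hypercapnia and 0.155 for low stretch hypercapnia. High against low stretch gave -0.02 ± 0.06 in normocapnia and 0.05 ± 0.06 in hypercapnia, neither called.

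Cell markers moved strongly in the comparison of low stretch ventilation with none, in which P2rx7 and P2rx4 fell. That comparison called 11.8% of all genes. 8 of 10 neutrophil markers rose, and their summed log2 signal was 13.41 to 14.23 in low stretch normocapnia and 10.49 to 12.82 in non-ventilated lungs. All 6 B cell markers fell, with sums of 9.14 to 9.83 in low stretch normocapnia and 10.57 to 11.27 in non-ventilated lungs. In the endothelial list 6 of 10 fell, with sums of 14.39 to 14.54 in low stretch normocapnia and 14.73 to 14.82 in non-ventilated lungs. 4 of 8 T cell markers, 2 of 8 type 1, 2 of 8 type 2 and 2 of 6 airway markers fell, and 2 of 5 platelet markers rose.

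None of 9 monocyte and macrophage markers was called, and their sums were 12.66 to 13.33 in low stretch normocapnia and 12.30 to 13.05 in non-ventilated lungs. The part of these lists in the P2rx7 and P2rx4 results was not tested.

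The other ventilated groups differed from no ventilation in the same lists, in the comparisons where P2rx7 and P2rx4 fell and Trpv2, Kcnk2 or P2ry2 was called. Called genes made up 33.8% of all genes in high stretch hypercapnia, 36.3% in high stretch normocapnia and 15% in low stretch hypercapnia. Neutrophil markers rose in 8 of 10 cases in each of the 3 groups, with sums of 13.07 to 14.62 in high stretch hypercapnia, 13.31 to 14.40 in high stretch normocapnia, 13.15 to 14.67 in low stretch hypercapnia and 10.49 to 12.82 in non-ventilated lungs. Endothelial markers fell in 6 of 10 cases in high stretch hypercapnia, 7 of 10 in high stretch normocapnia and 6 of 10 in low stretch hypercapnia, with none rising. Their sums were 14.38 to 14.51 in high stretch hypercapnia, 14.25 to 14.48 in high stretch normocapnia, 14.27 to 14.60 in low stretch hypercapnia and 14.73 to 14.82 in non-ventilated lungs. All 6 B cell markers fell in each group. Monocyte and macrophage markers rose in 5 of 9 cases in high stretch hypercapnia, 4 of 9 in high stretch normocapnia and 0 of 9 in low stretch hypercapnia, and 1 of 9 (Cx3cr1) fell in both hypercapnia groups.

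Type 2 markers fell in 4 of 8 cases in high stretch hypercapnia, 4 of 8 in high stretch normocapnia and 1 of 8 in low stretch hypercapnia. Smooth muscle and pericyte markers fell in 2 of 7 cases in high stretch hypercapnia, 4 of 7 in high stretch normocapnia and 2 of 7 in low stretch hypercapnia. Platelet markers rose in 4 of 5 cases in high stretch hypercapnia and 1 of 5 in high stretch normocapnia. Airway markers fell in 4 of 6 cases in each high stretch group and 1 of 6 in low stretch hypercapnia. Type 1 markers fell in 3 of 8 cases in each high stretch group and 4 of 8 in low stretch hypercapnia. Of 6 fibroblast markers 2 fell in high stretch hypercapnia, 4 in high stretch normocapnia and 1 in low stretch hypercapnia. Of 8 T cell markers 3, 2 and 4 fell in the same order. In each high stretch group 1 fibroblast and 1 T cell marker rose. Beside these counts, the called share of all genes was 33.8% in high stretch hypercapnia, 36.3% in high stretch normocapnia and 15% in low stretch hypercapnia. The part of these lists in the results of the 5 genes was not tested.

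**Figure D3:**
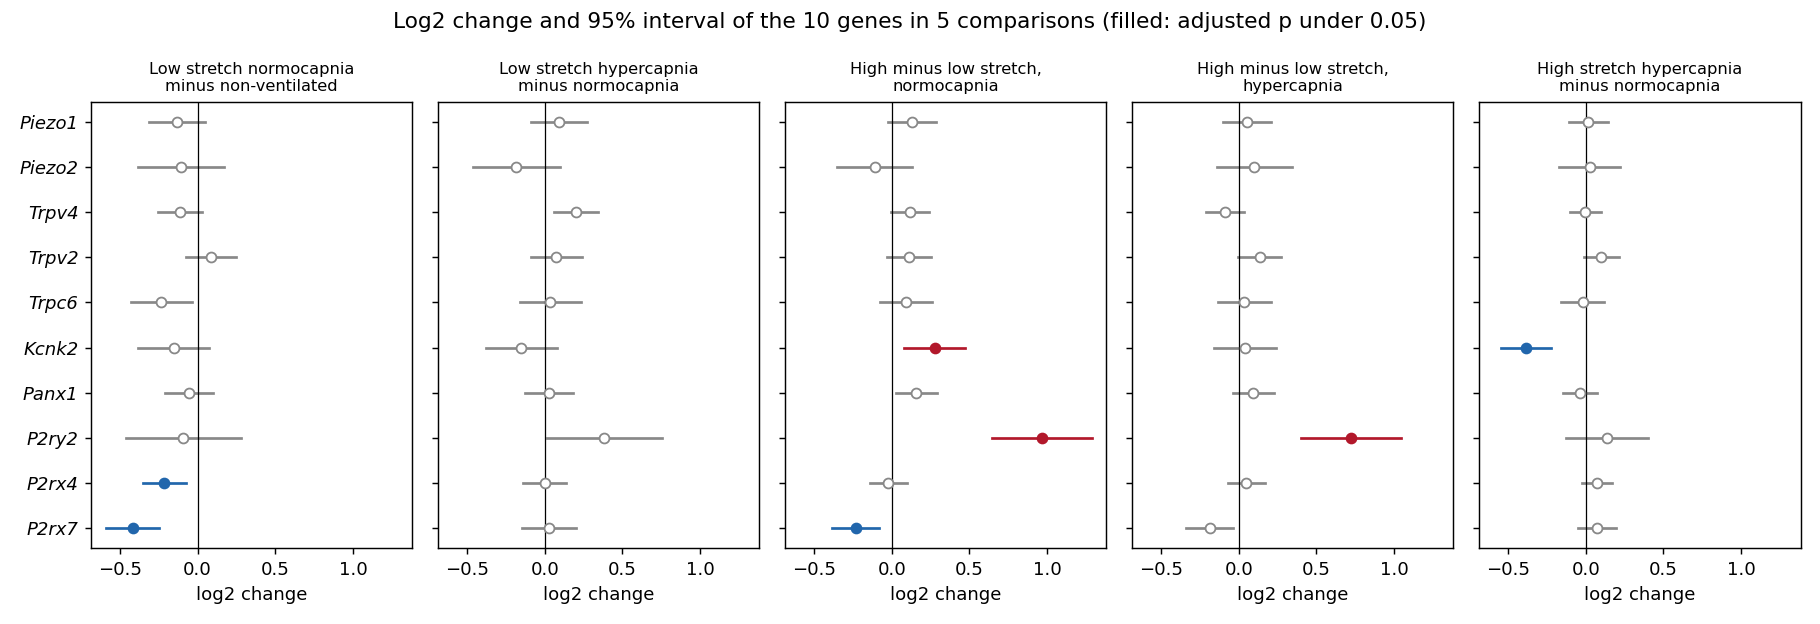
Log2 change (horizontal axes, group named first minus group named second) of the 10 genes in 5 comparisons, with limma 95% intervals. Filled points passed an adjusted p under 0.05. The called points are P2rx4 and P2rx7 for low stretch ventilation, Kcnk2, P2ry2 and P2rx7 for high stretch in normocapnia, P2ry2 for high stretch in hypercapnia and Kcnk2 for CO2 at high stretch.

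Set against all genes, the number of members called was 2 of 10 for low stretch ventilation (11.8% of all genes called), 3 of 10 for high stretch in normocapnia (18.3%) and 1 of 10 for high stretch in hypercapnia (10.1%). CO2 at low stretch called 0 of 10 with limma, against 0.115% of all genes. An unadjusted p under 0.05 was found there for 2 members (Trpv4 and P2ry2) and for 1839 of all 19938 genes. The interaction called 0 of 10 and 0% of all genes, with 1 member, Trpv4, at an unadjusted p under 0.05, beside 893 of all 19938 genes. Against no ventilation the counts were 5 of 10 in high stretch hypercapnia (33.8%), 4 of 10 in high stretch normocapnia (36.3%) and 2 of 10 in low stretch hypercapnia (15%). With 10 members these shares lay near those of all genes, so the results are about single genes.

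Genes whose 4 ventilated-group changes against no ventilation lay nearest to those of P2ry2 were picked from all other genes by the root mean square difference over these 4 changes. They were Nes (0.04), the intermediate filament nestin, Itpkc (0.086), a kinase of the calcium messenger IP3, and Rhoc (0.11), a small GTPase of the cytoskeleton. Nes changed by 1.05 in high stretch hypercapnia, 0.87 in high stretch normocapnia, 0.28 in low stretch hypercapnia and -0.02 in low stretch normocapnia. For P2rx7 the nearest were Hcar1 (0.012), a lactate receptor, Septin4 (0.031), a cytoskeletal GTPase, and Map3k4 (0.032), a stress kinase. Hcar1 changed by -0.58 in high stretch hypercapnia, -0.65 in high stretch normocapnia, -0.40 in low stretch hypercapnia and -0.40 in low stretch normocapnia. The likeness was selected, and it carries no test.

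The rest of the pathway was read from 5 lists of related genes. Of 12 other P2X and P2Y receptors, all measured, 3 rose and 0 fell with low stretch ventilation. P2ry13, an ADP receptor of myeloid cells, rose by 1.44 ± 0.26 (adjusted p = 0.000186), P2ry12, the ADP receptor of platelets and microglia, by 0.46 ± 0.13 (adjusted p = 0.0132) and P2ry1, another ADP receptor, by 0.37 ± 0.10 (adjusted p = 0.00851). 8 of 10 neutrophil and 2 of 5 platelet markers rose in the same comparison, and their part was not tested. The list's median change was -0.02, beside -0.01 for all genes, of which 11.8% were called.

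With high stretch in normocapnia 1 of these 12 receptors rose and 2 fell. P2ry6, the UDP receptor, rose by 0.39 ± 0.09 (adjusted p = 0.00168), P2rx6 fell by 0.33 ± 0.08 (adjusted p = 0.00223) and P2ry1 fell by 0.29 ± 0.08 (adjusted p = 0.0135). This P2ry1 fall is opposite to its rise with low stretch ventilation, and the 2 comparisons share the low stretch normocapnia arrays. In hypercapnia P2ry6 rose by 0.28 ± 0.09 (adjusted p = 0.0352) and P2ry1 fell by 0.32 ± 0.08 (adjusted p = 0.00963), on other arrays. CO2 at high stretch raised 1 of the 12, P2ry10, a lysophospholipid receptor of lymphocytes, by 0.67 ± 0.16 (adjusted p = 0.00983). The medians were -0.06, 0.03 and -0.06, beside -0.02, -0.03 and -0.01 for all genes. In the same order 18.3%, 10.1% and 5.56% of all genes were called.

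Extracellular ATP is cut to adenosine by a chain of surface enzymes, and 10 of 16 genes of that list were measured, while Adora1, Adora2a, Adora2b, Adora3, Enpp1 and Enpp2 were not analysed here. With high stretch in normocapnia 2 rose and 1 fell. Nt5e, the ecto-nucleotidase CD73 that makes adenosine from AMP, rose by 0.53 ± 0.14 (adjusted p = 0.0056), Alpl, tissue-nonspecific alkaline phosphatase, rose by 0.55 ± 0.16 (adjusted p = 0.0126), and the adenosine transporter Slc29a1 fell by 0.35 ± 0.08 (adjusted p = 0.00177). In hypercapnia Nt5e rose by 0.53 ± 0.14 (adjusted p = 0.0102) and Alpl by 0.59 ± 0.16 (adjusted p = 0.0134), and 0 fell. The called share of all genes was 18.3% in normocapnia and 10.1% in hypercapnia.

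CO2 at high stretch moved 3 of these 10 genes. Nt5e fell by 0.40 ± 0.11 (adjusted p = 0.0287), Entpd3, an ATP-cutting ectoenzyme, rose by 0.33 ± 0.10 (adjusted p = 0.036), and Slc29a1 rose by 0.21 ± 0.07 (adjusted p = 0.0447). Nt5e and Slc29a1 thus moved with CO2 opposite to their stretch changes, in comparisons that share the high stretch normocapnia arrays. Entpd3 was the only one of the 10 called with low stretch ventilation, where it rose by 0.60 ± 0.14 (adjusted p = 0.00283). The list's medians were -0.01 for stretch in normocapnia, -0.02 in hypercapnia, 0.09 for CO2 at high stretch and 0.06 for low stretch ventilation, beside -0.02, -0.03, -0.01 and -0.01 for all genes. CO2 at high stretch called 5.56% of all genes and low stretch ventilation 11.8%.

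Other routes of ATP release, 15 genes of connexins, pannexins, volume-regulated anion channels and related transporters, were all measured. With high stretch in normocapnia 5 rose and 2 fell. Gja1, the most widespread gap junction connexin, rose by 1.11 ± 0.10 (adjusted p = 1.01e-09), Gjb2, an epithelial connexin, by 0.54 ± 0.16 (adjusted p = 0.0114), and Lrrc8a, the obligatory subunit of the volume-regulated anion channel, by 0.36 ± 0.06 (adjusted p = 0.000105). In hypercapnia 4 rose and 2 fell, with Gja1 at 0.87 ± 0.10 (adjusted p = 2.61e-07), Lrrc8c at 0.52 ± 0.08 (adjusted p = 3.96e-05) and Lrrc8a at 0.40 ± 0.06 (adjusted p = 4.9e-05). Changes over the 15 genes ran from -0.26 to 1.11 in normocapnia and from -0.47 to 0.87 in hypercapnia. Panx1 itself was called in neither. The list's medians were 0.03 in normocapnia and -0.03 in hypercapnia, beside -0.02 and -0.03 for all genes. Of all genes, 18.3% were called in normocapnia and 10.1% in hypercapnia.

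Low stretch ventilation raised 1 and lowered 3 of these 15 genes, and 11.8% of all genes were called. Lrrc8a rose by 0.65 ± 0.07 (adjusted p = 1.32e-07), and Gja4, a connexin of arterial endothelium, fell by 0.40 ± 0.13 (adjusted p = 0.0413). Gja1 fell by 0.37 ± 0.12 (adjusted p = 0.0338), opposite to its change with high stretch, in comparisons that share the low stretch normocapnia arrays. 6 of 10 endothelial markers fell with low stretch ventilation too, and their part was not tested. CO2 at high stretch called none of the 15 in limma, beside 5.56% of all genes. An unadjusted p under 0.05 was found for 4 of the 15 and for 3489 of all 19938 genes.

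Of 33 other stretch-responsive channels and their partners 31 were measured. With high stretch in normocapnia 4 rose and 1 fell: Kcnj2, the inward rectifier Kir2.1, rose by 0.62 ± 0.13 (adjusted p = 0.000585), Tmem120a by 0.35 ± 0.09 (adjusted p = 0.00298), and Scnn1g, the gamma subunit of the epithelial sodium channel, fell by 0.37 ± 0.07 (adjusted p = 0.000353). In hypercapnia 3 rose and 0 fell, among them Kcnj2 by 0.39 ± 0.13 (adjusted p = 0.0417). Kcnj2 also rose with CO2 at high stretch by 0.42 ± 0.10 (adjusted p = 0.0117), where Kcnk2 fell. There 2 of the 31 rose and 0 fell, and with low stretch ventilation 1 rose and 1 fell. The list's medians ran from -0.04 to 0.01 over these 4 comparisons, and those of all genes from -0.03 to -0.01. Stretch called 18.3% of all genes in normocapnia and 10.1% in hypercapnia, CO2 at high stretch 5.56% and low stretch ventilation 11.8%.

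Downstream of P2Y2, 17 of 18 genes of Gq, phospholipase C, store-operated calcium entry and its targets were measured. With high stretch 3 rose and 2 fell in normocapnia, and 2 rose and 2 fell in hypercapnia. Rcan1, a calcineurin regulator that is itself induced by calcium signalling, rose by 1.30 ± 0.15 in normocapnia (adjusted p = 7.93e-08) and by 1.31 ± 0.15 in hypercapnia (adjusted p = 1.32e-07). Nfatc1, a transcription factor activated by calcineurin, rose by 0.27 ± 0.05 in normocapnia (adjusted p = 0.000349) and by 0.26 ± 0.05 in hypercapnia (adjusted p = 0.00106). Gna14, a G-protein alpha subunit of the Gq class, fell by 0.59 ± 0.10 in normocapnia (adjusted p = 3.91e-05) and by 0.41 ± 0.10 in hypercapnia (adjusted p = 0.00519). The list's median was -0.08 in both, beside -0.02 and -0.03 for all genes. Of all genes, 18.3% were called in normocapnia and 10.1% in hypercapnia.

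With low stretch ventilation 2 of these 17 rose and 5 fell, where 11.8% of all genes were called. Gna14 fell by 0.73 ± 0.11 (adjusted p = 2.42e-05) and Plcb3, a phospholipase C, by 0.26 ± 0.05 (adjusted p = 0.000934), while Rcan1 rose by 0.51 ± 0.17 (adjusted p = 0.0498). CO2 at high stretch raised Plcb3 by 0.19 ± 0.04 (adjusted p = 0.00201) and Itpr3, an IP3-gated calcium release channel, by 0.17 ± 0.05 (adjusted p = 0.0333). In limma, CO2 at low stretch and the interaction called 0 of the 85 measured genes of the 5 lists, with 11 and 5 of them at an unadjusted p under 0.05. Among all 19938 genes, 1839 and 893 had an unadjusted p under 0.05 in these tests.

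**Figure D4:**
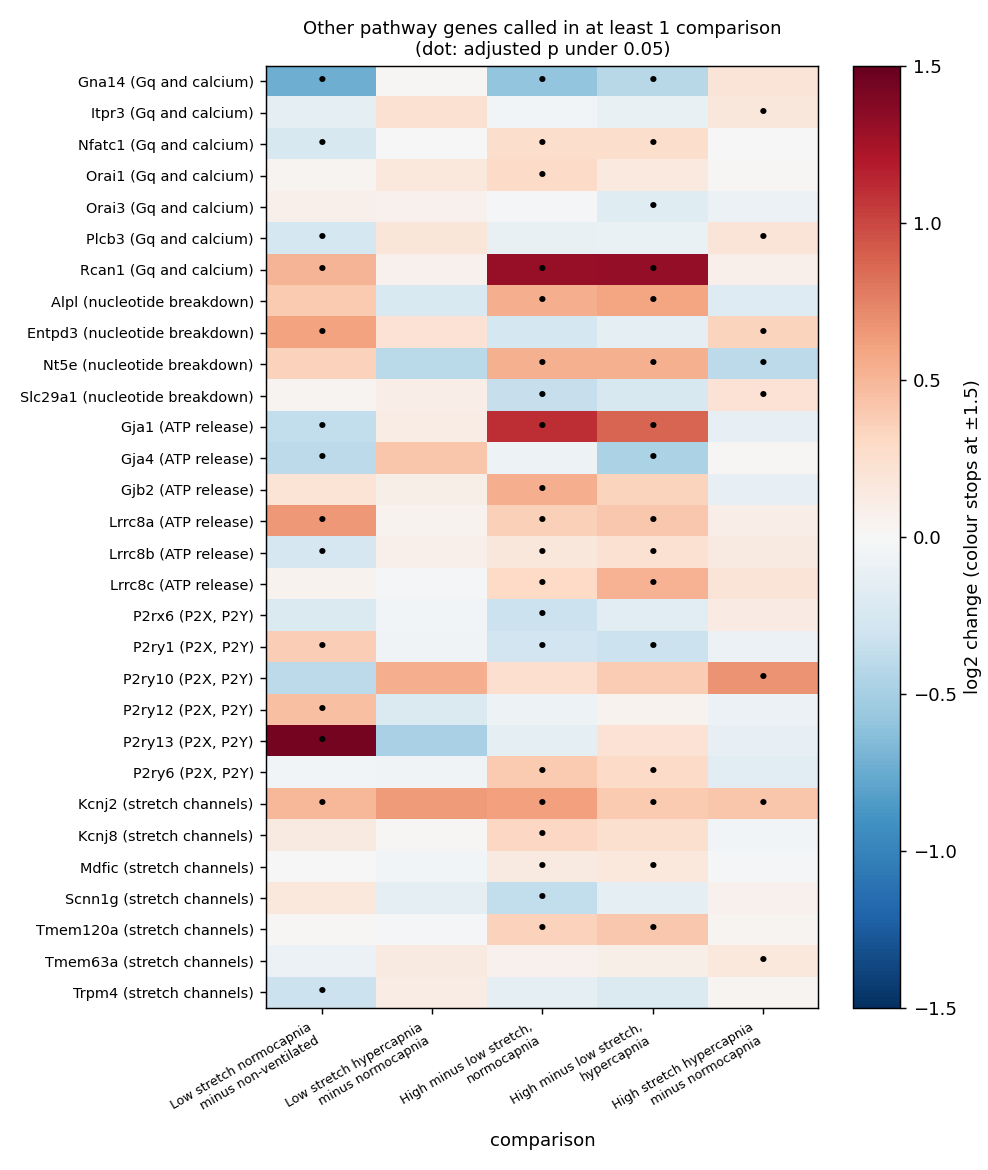
Log2 change (colour, stopping at 1.5 in either direction) in 5 comparisons (columns) of 30 genes of the 5 related lists (rows). Shown are the called genes of largest absolute change in each list and comparison, so not every called gene has a row. A dot marks an adjusted p under 0.05. Rcan1 and Gja1 stand out in both columns of high against low stretch, and the column for CO2 at low stretch holds no dot.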

How the data were processed

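Per the labels' protocols, Trizol-extracted, column-cleaned lung RNA was labelled by Affymetrix's whole-transcript method. The authors deposited log2 signals, and the submitters' processing notes name RMA, Affymetrix Expression Console and Partek, without version or order. The genome build is not given in the sources used here. The table held 35557 probe sets, of which 21789 carried 1 gene symbol, 1621 several and 12147 none in the platform annotation. The highest-mean probe set was kept per symbol, which left 19938 genes. No 2 arrays were identical.

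A limma model (version 3.58.1, R 4.3.3, lmFit and eBayes) held a mean for each group and used all 35 arrays, and contrasts were tested two-sided with Benjamini-Hochberg adjustment over all genes in each comparison. The number of arrays limits the precision. Alternatives were array weights, the compared groups alone, trend and robust options, a block for the replicate number, quantile normalization repeated, median centring, all or averaged probe sets, genes above the median level, and leaving out each array in turn. The procedure was tested on simulated data.

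The 10 members are all described. In each pathway list some of the called genes with large changes are named, and other called genes are given by count alone. Likeness names the 3 nearest genes for members whose group means span over 0.5 log2 units. The members and lists were chosen with earlier results of these data known. Promoter sequences, names and coordinates are from RefSeq (GRCm38.p6).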

Additional observations from a re-analysis of the deposited data

Results flagged for a closer look

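Of 50 sets of arrays (10 genes in 5 groups), 4 held an array far from the others of its group by Dixon's criterion, which chance alone meets in about 1 of 20 groups. Non-ventilated replicate 5 was low for Trpv4 at 7.21, while the other 4 lay between 7.35 and 7.39. Non-ventilated replicate 1 was low for Trpc6 at 9.64, and low stretch normocapnia replicate 5 was high for Trpc6 at 9.82, so the 2 groups overlap through these arrays. Non-ventilated replicate 4 was low for P2ry2 at 7.93, while the other 4 lay between 8.08 and 8.13. They were 4 different arrays, and no array stood apart for more than 1 of these genes.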

How the results depend on the processing

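Over 90 member results and 2192 alternative values, 2141 kept their call or lack of one, 39 lost a call, 12 gained one and 0 changed direction while called. Of 18 called results 11 passed under every alternative, among them all 4 of P2ry2 and the fall of Kcnk2 with CO2 at high stretch. Fitted on the compared groups alone, the members called were 1 for low stretch ventilation (2 in the full fit), 1 for low stretch hypercapnia against none (2) and 3 for high stretch hypercapnia against none (5). Trpv2 in high stretch normocapnia against none was also lost there (adjusted p = 0.0666), which left 3 members (4). For high against low stretch in normocapnia the fit of the compared groups alone gained Panx1 (adjusted p = 0.0285). Leaving out 1 array gave 1 to 2 members for low stretch ventilation, 1 to 3 for high stretch in normocapnia, 1 to 2 for high stretch in hypercapnia, 1 for CO2 at high stretch, 3 to 4, 1 to 3 and 3 to 5 for high stretch normocapnia, low stretch hypercapnia and high stretch hypercapnia against none, and 0 for CO2 at low stretch and the interaction. Kcnk2 in high against low stretch normocapnia also missed with all probe sets tested (adjusted p = 0.064) and after a second quantile normalization (0.056). Once group means were taken off, 17 of 55 same-numbered pairs of arrays correlated above 0.1. Between low and high stretch normocapnia 4 of 5 did, and between non-ventilated and high stretch hypercapnia 0 of 5 did. Differently numbered arrays were not compared, so whether the replicate numbers pair arrays was not tested. With the replicate block, against no ventilation, Trpv2 in high stretch normocapnia (0.129) and Kcnk2 in high stretch hypercapnia (0.259) were lost, and Kcnk2 in high stretch normocapnia (0.04) and low stretch hypercapnia (0.0304) were gained. The cause of these changes was not tested. Restricting to genes above the median level left out Trpv4 and Panx1. Median centring shifted the median of all genes by under 0.1 log2 units; it put 32.9% of called genes on the higher side for CO2 at high stretch, against 44.8% without centring.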

Other observations

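Within the 10 high stretch hypercapnia arrays P2ry2 was highest where Kcnk2 was lowest, a pattern looked for after the values were seen. Replicates 8 and 10 had the highest P2ry2 values (9.84 and 9.79) and the lowest Kcnk2 values (8.24 and 8.36). Pearson's r was -0.95 (permutation p = 0.00033, n = 10) and Spearman's rho was -0.90 (permutation p = 0.00082). Without these 2 arrays, the farthest from the Kcnk2 median, r was -0.79. Over 90 relations, all pairs of the 10 genes in each high stretch group, the adjusted permutation p was 0.0297 for r and 0.0738 for rho, so the ranks missed the threshold. It was the only relation of the 90 to pass for r, while 10 had an unadjusted p under 0.05. In high stretch normocapnia the same pair had r of -0.37 (permutation p = 0.29) and rho of -0.52 (permutation p = 0.134), n = 10, and the difference between the groups was not tested. Both values of a point come from 1 array, and differences between arrays in RNA or tissue composition are shared by them.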
